A study of Drosophila melanogaster with 6 samples.

Results

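The ecdysone-induced effector genes considered here are 10 protein-coding genes of Drosophila melanogaster: ImpE1, ImpE2, ImpE3, ImpL1, ImpL2, Eip71CD, Eip63F-1, Eip55E, Sox14 and Blimp-1. They were taken by symbol, as the rows of the count table whose gene name equals a listed name, and all 10 were found among 16727 genes. Their messenger RNA was measured in eye-antennal imaginal discs, the larval epithelia that form the eye, antenna and head capsule of the adult fly. Discs came from larvae dissected at day 5 after egg laying, in active growth, or at day 11, past the end of growth. Each day has 3 libraries, and each library pools at least 30 discs. Every larva in both groups had the genotype y w; +/+; +/+, was kept at 25 °C, and ate food made from boiled YPH erg2∆::TRP1 yeast, which lacks the sterol precursors of the moulting hormone, so that pupation did not start. Both groups therefore share the hormone-poor diet, and neither the hormone itself nor discs from normally fed larvae were analysed here. Age, time on this food and the end of growth differ together between the days and cannot be told apart.

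Ecdysone is the steroid hormone that starts moulting and metamorphosis. It binds a receptor made of EcR and Usp, which switches on early genes for transcription factors, and these together with the receptor drive effector genes that carry out the tissue's response. The Imp genes were isolated as hormone-inducible transcripts on the membrane-bound polysomes of imaginal discs, so that many of their products are secreted or lie at the cell surface, with E for early and L for late. The Eip genes take their name from ecdysone-induced proteins, the first of them found in cultured fly cells. Sox14 and Blimp-1 encode transcription factors that answer the hormone quickly.

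The libraries held 6542782 to 9049513 counts, and a floor of 3 counts per library lies at 0.321 to 0.461 CPM. All levels below are CPM, counts scaled to a common library size, with TMM factors that adjust for library composition. This floor covers counting error only. A panel of 16 eye-antennal disc genes, among them ey, so and dac, was detected in full, with a summed level of 2999 to 3127 CPM at day 5 and 2536 to 3337 CPM at day 11. Most of that sum is hth, at 1509.7 to 1899.7 CPM. Of the 15 disc genes tested 4 were lower at day 11, dac (log2 fold change -2.54), eya (-1.49), Optix (-1.06) and ey (-0.90), and 2 were higher, ct (0.67) and oc (0.62). Genes on marker lists of other tissues were also detected, with no gene of these lists at 0 throughout. Whether disc cells themselves express some of these genes was not tested. The 7 fat body genes summed to 780.3, 361.3 and 75.3 CPM in day 5 replicates 1 to 3 and to 86.5, 1068 and 128.5 CPM in day 11 replicates 1 to 3. The 13 haemocyte genes, markers of blood cells, summed to 176.7 to 259.7 CPM at day 5 and to 261.8, 875.3 and 431.9 CPM in day 11 replicates 1 to 3. Of the 11 haemocyte genes tested 6 were higher at day 11. The 10 salivary gland genes summed to 6.96 to 25.8 CPM at day 5 and to 121.2, 118.2 and 1316 CPM in day 11 replicates 1 to 3. This sum was thus higher in every day 11 library than in any day 5 library, and highest by far in day 11 replicate 3. Of the 7 salivary gland genes tested 2 were called higher. Day 11 replicate 2 had the highest haemocyte and fat body sums. The 9 ring gland genes reached 403.5 CPM in day 5 replicate 3, against at most 122.9 CPM elsewhere. Sums of 3 more lists did not overlap between the days. The 14 muscle genes summed to 1069 to 1691 CPM at day 5 and 853.9 to 948.5 CPM at day 11, with 1 gene called higher and 2 lower. For the 9 brain neuroblast genes the sums were 790.4 to 946.7 CPM at day 5 and 1015 to 1346 CPM at day 11, with 3 of 7 tested genes higher. The 9 tracheal genes had 678.8 to 806.0 CPM at day 5 and 1099 to 1286 CPM at day 11, with 4 of 7 tested genes higher and 2 lower. These counts stand beside 19.1% called higher and 17.9% called lower over all 8010 genes tested. Levels of 50.8% of the genes tested did not overlap between the days. The part of these tissues, and of the lower disc genes, in the differences below was not tested. In bulk tissue, fewer cells of a type and less RNA per cell cannot be told apart.

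The effector genes did not move as a block. At day 11, ImpL1, ImpE2, Blimp-1, Eip63F-1 and Sox14 were higher, Eip71CD and Eip55E were lower, and ImpE1, ImpE3 and ImpL2 did not pass the test. With edgeR's quasi-likelihood test and Benjamini-Hochberg adjustment at a threshold of 0.05, these are 7 of 10 members, where 37.0% of the 8010 genes tested were called. The 5 higher members stand beside 19.1% of all tested genes called higher, and the 2 lower members beside 17.9% called lower. The members' median log2 fold change was 0.64, against -0.01 over all tested genes. Levels of the same 7 members did not overlap between the days, as was the case for 50.8% of tested genes (25.6% higher and 25.2% lower). With 37.0% of all genes called, the count says little about the members as a set, and the values below are of more use gene by gene. All 10 members passed the filter on low counts, which asked for 3 libraries above a minimum. Eip63F-1 was above it in 2 of the day 5 libraries and Blimp-1 in 1, so that both passed only with their day 11 libraries. Among the other 8 members 3 were higher, 2 lower and 3 not called. With 1 library left out, at most 6 members were called. The count was 4 without day 11 replicate 3 or day 5 replicate 2, and 3 without day 5 replicate 3. In these settings the number of genes called over the whole table also went down, to between 2202 and 2415. Without day 5 replicate 1 that number went down to 2364, while 6 members were called. Rises made up 51.7% of all calls with TMM, 28.2% when scaled by total counts alone and 61.7% when the total left out a pair of very abundant short RNAs. The direction of each of the 7 called members was the same under all 3 of these scalings.

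**Figure D1:**
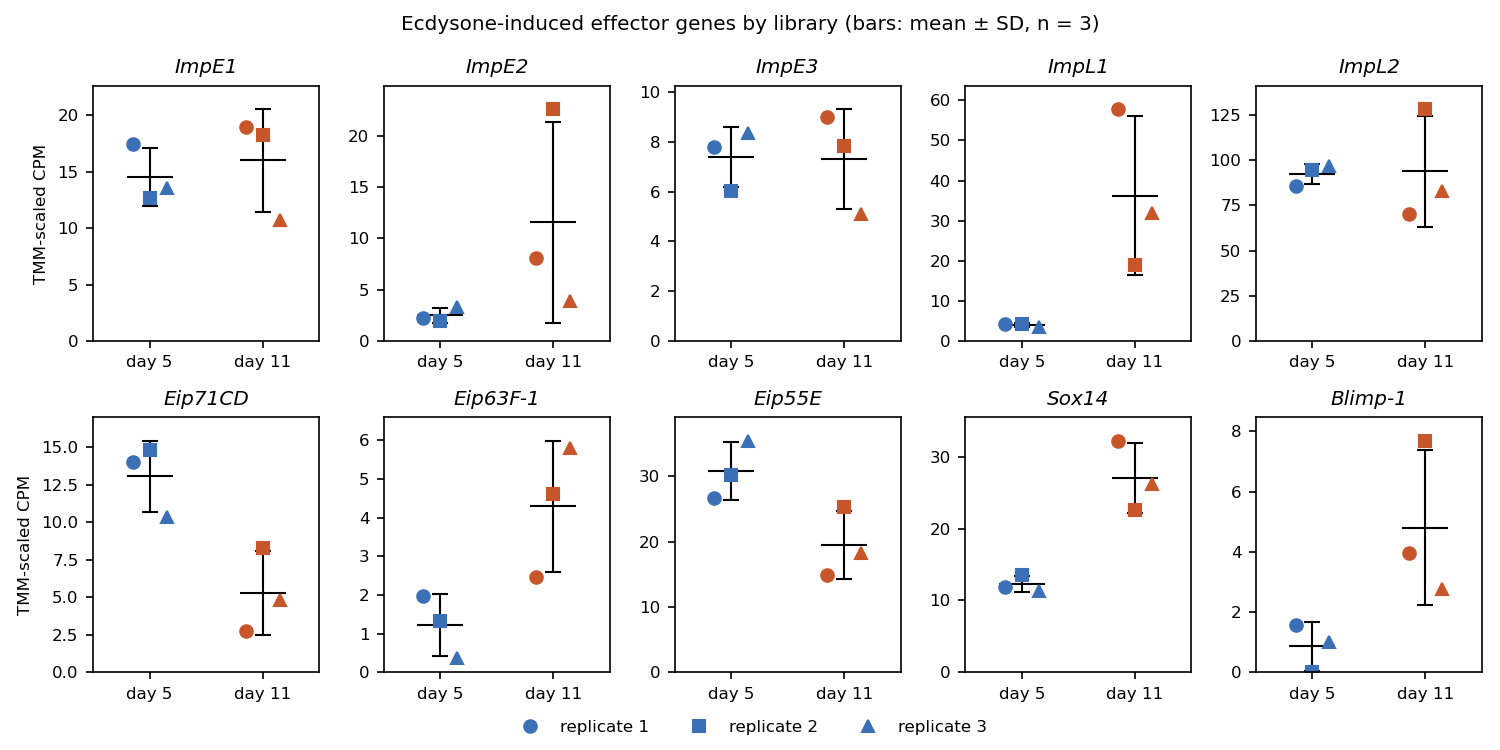
Level of each effector gene in TMM-scaled CPM (vertical axes, starting at 0) in the 3 libraries of day 5 (blue) and of day 11 (orange), with marker shapes for replicates 1 to 3 and bars for mean ± SD. Days do not overlap for ImpE2, ImpL1, Eip71CD, Eip63F-1, Eip55E, Sox14 and Blimp-1, and overlap for ImpE1, ImpE3 and ImpL2.

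Among the Imp genes, ImpL1 rose the most. Its fitted rise was also the largest of the 10 members, except with limma-voom, where Blimp-1 had 3.26 and ImpL1 3.07. ImpL1, a late-induced disc gene whose product has no settled function, lies on chromosome 3L from 13382765 to 13383999 on the plus strand of assembly release 6 (dm6). It stood at 4.23, 4.34 and 3.42 CPM in day 5 replicates 1 to 3 and at 57.8, 18.9 and 31.8 CPM in day 11 replicates 1 to 3. Every day 11 library was thus far above every day 5 library, and replicate 1 was the highest of its day. Its log2 fold change was 3.18 (SE 0.42, 95% interval 2.20 to 4.17, edgeR adjusted p = 0.000967), or 9.08-fold. This was the 149th largest rise of the 8010 genes tested, and it remained called in all 17 other processing settings, where it ran from 2.67 to 3.49.

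ImpE2, which encodes a protein secreted at the apical face of the disc into its lumen, was also higher, with the least even day 11 values. Its locus is chromosome 3L from 3510974 to 3512681, minus strand. The level was 2.25, 1.93 and 3.29 CPM at day 5 and 8.13, 22.6 and 3.93 CPM at day 11, in order of replicate. The days did not overlap, but day 11 replicate 3 was only slightly above day 5 replicate 3, and replicate 2 was the highest by a wide margin. This gave ImpE2 a log2 fold change of 2.20 (SE 0.63, 95% interval 0.72 to 3.68, edgeR adjusted p = 0.0292). Without day 11 replicate 2 it was 1.29 and still called (adjusted p = 0.0388). That library had the highest fat body and haemocyte sums, whose part in the value was not tested. The call of ImpE2 was lost in 6 of 16 other settings: without a count filter (adjusted p = 0.0668), with limma-voom (0.0653), and without day 11 replicate 1 (0.0661), day 5 replicate 1 (0.0956), day 5 replicate 2 (0.109) or day 5 replicate 3 (0.0554).

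The other early Imp genes showed no difference between the days beyond the spread of their libraries. ImpE1 encodes a membrane protein with repeats like those of the low-density lipoprotein receptor and lies on chromosome 3L from 8372405 to 8391171, plus strand. It stood at 17.5, 12.6 and 13.5 CPM at day 5 and at 18.9, 18.3 and 10.8 CPM at day 11. Day 11 thus held both the highest and the lowest library. ImpE1 had a log2 fold change of 0.14 (SE 0.24, 95% interval -0.39 to 0.67, edgeR adjusted p = 0.680), with its sign turned in 3 of 17 other settings. ImpE3, a gene for a disc cell-surface protein on chromosome 3R from 8028453 to 8029546, minus strand, had 7.81, 6.02 and 8.35 CPM at day 5 and 8.99, 7.84 and 5.09 CPM at day 11. The 2 ranges overlapped in the same manner as for ImpE1, with day 11 replicate 3 the lowest library for both genes. For ImpE3 the difference was -0.01 on the log2 scale (SE 0.29, 95% interval -0.64 to 0.62, adjusted p = 0.983), with its sign turned in 7 of 17 other settings. The intervals of ImpE1 and ImpE3 leave out a 2-fold difference in either direction, but not smaller ones. ImpE3 lies within an intron of CG2747 on the same strand. CG2747, at 5.06 to 8.29 CPM over the 6 libraries, had a log2 fold change of 0.47 (SE 0.27, adjusted p = 0.198).

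ImpL2 encodes a secreted immunoglobulin-domain protein that binds insulin-like peptides and holds back growth signalling. Its locus is chromosome 3L from 4224006 to 4236147, minus strand. It was at 85.9, 94.6 and 96.5 CPM at day 5 and at 70.2, 128.2 and 82.9 CPM at day 11. The day 5 libraries were close together, and the day 11 libraries lay on both sides of them. On the log2 scale the days differed by 0.02 (SE 0.20, 95% interval -0.42 to 0.46, edgeR adjusted p = 0.948), with its sign turned in 6 of 17 other settings. Without day 11 replicate 2, the library with the highest fat body and haemocyte sums, it was -0.27 (adjusted p = 0.177), still not called. The part of those tissues in its ImpL2 level was not tested. A further annotated gene, CG46460, shares 2593 nt of the ImpL2 locus on the same strand. CG46460 was not analysed here, so tags at this locus may belong to either.

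**Figure D2:**
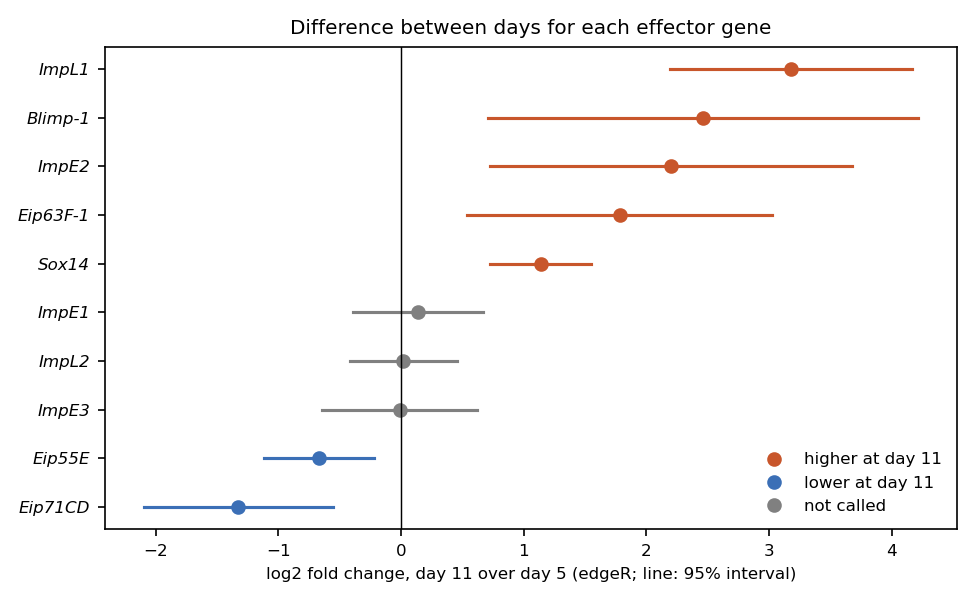
Log2 fold change of day 11 over day 5 for each effector gene (points, horizontal axis) with its 95% interval from edgeR (lines). ImpL1 at 3.18 is the highest and Eip71CD at -1.33 the lowest, and the intervals of ImpE1, ImpL2 and ImpE3 span 0.

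Of the Eip genes, both for enzymes of sulfur amino acid chemistry fell and the calcium-binding one rose. Eip71CD encodes a methionine sulfoxide reductase, which repairs oxidised methionine, on chromosome 3L from 15511052 to 15513202, plus strand. Its level was 14.0, 14.8 and 10.4 CPM at day 5 and 2.78, 8.30 and 4.80 CPM at day 11. Every day 11 library was below every day 5 library, replicate 1 the most. Eip71CD had a log2 fold change of -1.33 (SE 0.35, 95% interval -2.10 to -0.55, edgeR adjusted p = 0.0122), a fall of 2.51-fold. It passed the threshold in 16 of 17 other settings and missed it without day 11 replicate 3 (adjusted p = 0.0537).

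Eip55E encodes cystathionine gamma-lyase, which makes cysteine from cystathionine, on chromosome 2R from 18627918 to 18629395, plus strand. It stood at 26.7, 30.2 and 35.4 CPM at day 5 and at 14.9, 25.2 and 18.3 CPM at day 11. The days did not overlap, although the highest day 11 library came close to the lowest day 5 library. Eip55E had a log2 fold change of -0.67 (SE 0.21, 95% interval -1.12 to -0.22, edgeR adjusted p = 0.0241), a fall of 1.59-fold. The call was lost in 4 of 17 other settings, with adjusted p of 0.0894 without day 11 replicate 3, 0.0544 without day 5 replicate 2, 0.0994 without day 5 replicate 3 and 0.0512 when scaled by total counts less the short RNAs. Within day 11 the 3 libraries had the same order for Eip71CD and Eip55E, with replicate 2 the highest and replicate 1 the lowest. ImpL2, which was not called, also had this order.

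Eip63F-1 encodes an EF-hand calcium-binding protein on chromosome 3L from 3909973 to 3935617, minus strand. It was detected with 15, 11 and 3 counts at day 5 and 23, 30 and 40 counts at day 11, which are 1.98, 1.33 and 0.379 CPM and 2.46, 4.61 and 5.81 CPM. Day 5 replicate 3 was at the counting floor, and the lowest day 11 library was not far above the highest day 5 library. This is a log2 fold change of 1.78 (SE 0.57, 95% interval 0.54 to 3.03, edgeR adjusted p = 0.0284). The call did not hold in 6 of 16 other settings, 4 of them with a library left out: day 11 replicate 2 (adjusted p = 0.0532), day 11 replicate 3 (0.129), day 5 replicate 2 (0.0630) and day 5 replicate 3 (0.0820). Scaling by total counts gave 0.0531. The antisense gene Eip63F-2, which shares 900 nt of the locus, had 0 counts at day 5 and 1, 0 and 2 counts at day 11. The strand setting of the counting is unknown here, and without strand the reads of the pair cannot be told apart where they overlap.

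Both transcription factor genes rose. Sox14 encodes a high-mobility-group protein that ecdysone induces and that is needed for the pruning of larval neurites, on chromosome 2R from 23978801 to 23985177, plus strand. It had 11.9, 13.5 and 11.4 CPM at day 5 and 32.2, 22.6 and 26.2 CPM at day 11. The days were well apart, and the spread within each was small, at 8.95% of the mean at day 5 and 18.0% at day 11. For Sox14 the log2 fold change was 1.14 (SE 0.19, 95% interval 0.73 to 1.55, edgeR adjusted p = 0.000764), and the call held in all 17 other settings, with values from 0.88 to 1.25. Sox14 meets the gene Phm tail to tail with 3 nt shared, so tags near both ends lie close together. Phm ran from 33.4 to 41.4 CPM over all libraries and had a log2 fold change of 0.05 (SE 0.14, adjusted p = 0.810).

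Blimp-1 encodes a zinc-finger repressor that the hormone induces and that delays the onset of ftz-f1, on chromosome 3L from 5630983 to 5652094, plus strand. It was rare, with 12, 0 and 8 counts at day 5 and 37, 50 and 19 counts at day 11, or 1.59, 0 and 1.01 CPM and 3.96, 7.69 and 2.76 CPM. All 3 day 11 libraries were above all 3 day 5 libraries, of which replicate 2 had no count. The difference for Blimp-1 was 2.46 on the log2 scale (SE 0.79, 95% interval 0.71 to 4.22, edgeR adjusted p = 0.0332), an interval too wide to fix its size. The value without day 5 replicate 1 was 3.21 (adjusted p = 0.0350), without day 5 replicate 2, the one with no count, 1.86 (0.0322), and with limma-voom 3.26 (0.0325). In 4 of 16 other settings Blimp-1 was no longer called. These include leaving out day 11 replicate 2 (adjusted p = 0.0854) or day 5 replicate 3 (0.0878) and removing the trend of fold change on transcript length (0.0570). Day 11 replicate 2, the highest library for Blimp-1, also had the highest fat body and haemocyte sums, whose part in the value was not tested.

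**Figure D3:**
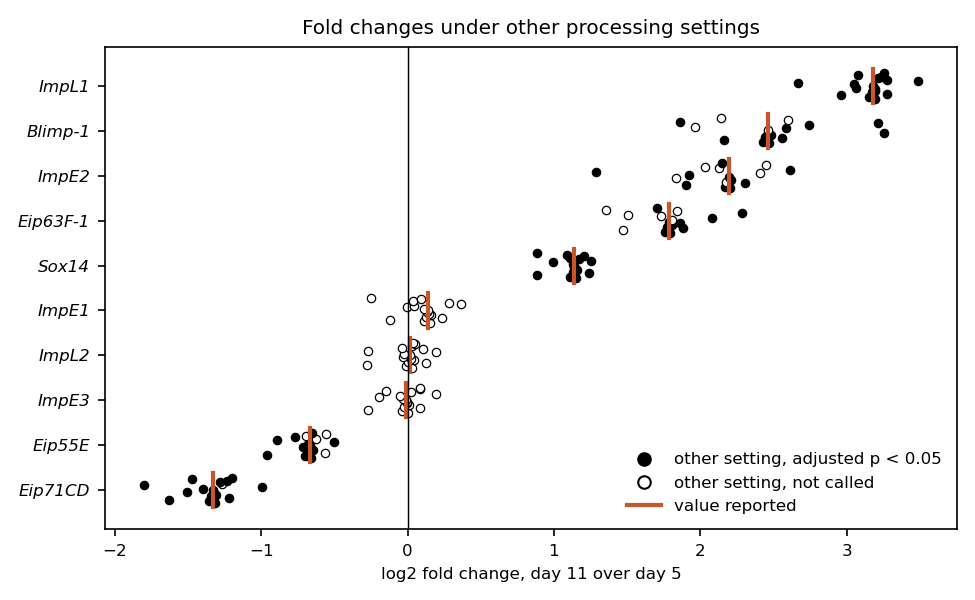
Log2 fold change of each effector gene under the other processing settings (points, filled where adjusted p is below 0.05) beside the reported value (orange bars). ImpL1 and Sox14 are filled throughout, ImpE2 and Eip63F-1 each have 6 open points, and the values of ImpE1, ImpE3 and ImpL2 lie around 0 and are all open.

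ImpL1 and Sox14 had profiles of nearly the same shape over the 6 libraries, although they sit on different chromosome arms. Their rises differed in size, at 9.08-fold for ImpL1 and 2.20-fold for Sox14, which a correlation leaves out. Among 6303 genes of at least 5 mean CPM, likeness was taken as Pearson's r of log2 CPM over the 6 libraries, a description in which all points share the contrast of days. The genes most like ImpL1 were Eip75B (r = 0.997), W (r = 0.997) and rudhira (r = 0.997), and those most like Sox14 were Eip75B (r = 0.999), ImpL1 (r = 0.995) and W (r = 0.995). Eip75B is an early ecdysone-response nuclear receptor gene, and W is the cell death gene also called hid. In all 5 genes day 11 replicate 1 was the highest library, replicate 3 came next and replicate 2 was the lowest of its day. For Eip75B, W and rudhira this order follows largely from their choice by likeness over the same libraries. Eip75B stood at 141.7, 149.7 and 139.1 CPM at day 5 and at 232.6, 190.3 and 206.4 CPM at day 11. W stood at 83.4, 88.4 and 84.0 CPM and at 223.9, 153.7 and 191.5 CPM. High likeness was common for genes that differ between the days, with r above 0.9 for 839 genes with ImpL1 and 824 with Sox14. Day 11 replicate 1 also had the smallest share of its day of counts in the short RNAs CR40469 and CR34335, at 26.3% against 40.8% and 39.6% in replicates 2 and 3, and its part in the order of the libraries was not tested. At day 5 the share was 14.5%, 19.0% and 16.3% in replicates 1 to 3, below every day 11 library, so this share differs between the days too.

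**Figure D4:**
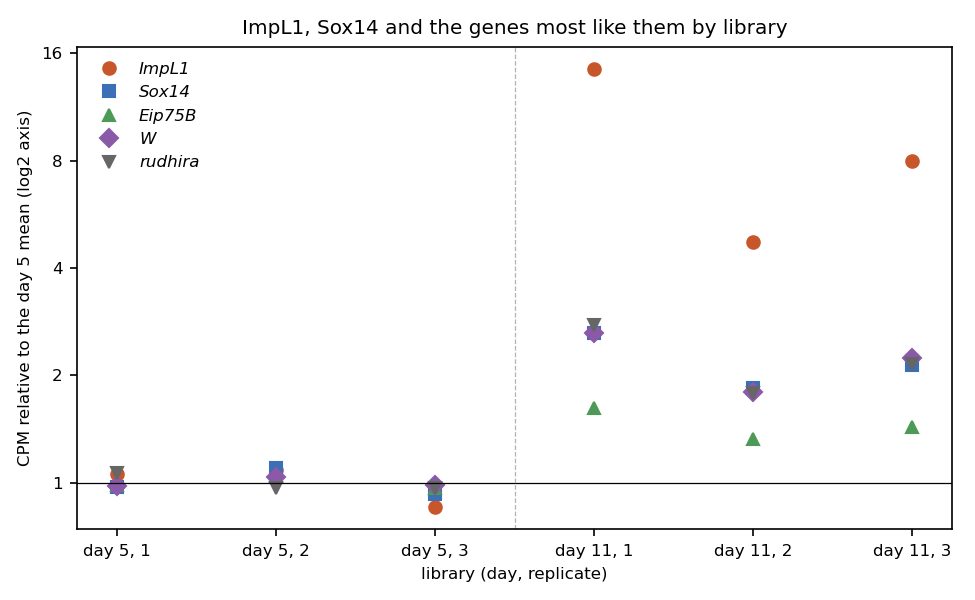
CPM of ImpL1, Sox14, Eip75B, W and rudhira in each library, divided by the gene's day 5 mean (log2 axis). All 5 genes lie near 1 at day 5, and at day 11 replicate 1 is the highest and replicate 2 the lowest for each. Eip75B, W and rudhira were drawn because their profiles were most like those of ImpL1 or Sox14.

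The other members did not share this order of libraries. ImpE2 was most like Tsp74F (r = 0.986), Rint1 (r = 0.984) and CG6813 (r = 0.977). Like ImpE2, these had their highest level in day 11 replicate 2, which again follows largely from their choice by likeness. Eip71CD was most like bor (r = 0.994), Tom20 (r = 0.994), a gene of mitochondrial protein import, and pelo (r = 0.994), a gene of ribosome rescue. For Eip55E the genes were ras (r = 0.997), which encodes an enzyme of guanine nucleotide synthesis, CG42336 (r = 0.994) and Art3 (r = 0.994). Eip63F-1 was most like Nipped-A (r = 0.990), Not1 (r = 0.985) and Ziz (r = 0.982), and Blimp-1 was most like Vha26 (r = 0.988), CG3894 (r = 0.988) and CG1116 (r = 0.981). The last 2 members rest on few counts, so that counting error enters their order of libraries. Of the genes named in this paragraph as most like a member, Tsp74F and Ziz, Tom20, CG42336, Art3 and CG3894 were themselves called, and the rest were not. Genes with r above 0.9 numbered 40 for ImpE2, 559 for Eip71CD, 393 for Eip55E, 131 for Eip63F-1 and 87 for Blimp-1.

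Upstream of the effectors, the receptor genes were not called and the early genes differed among themselves. Of 21 tested genes of the receptor and its regulatory cascade 9 were higher and 2 lower at day 11, with a median log2 fold change of 0.55. Among the higher ones let-7-C, with 4, 8 and 11 counts at day 5, passed the filter on low counts only with its day 11 libraries. Over all tested genes 19.1% were called higher and 17.9% lower, with a median of -0.01, and the counts of the lists below stand beside these same shares. EcR had 268.0 ± 16.7 CPM at day 5 and 302.1 ± 4.79 CPM at day 11 (SD, n = 3 each), 0.17 higher on the log2 scale (95% interval -0.07 to 0.42), and its partner usp had 0.34 (-0.08 to 0.76), neither called. br, an early gene of metamorphosis, stood at 615.3 ± 65.0 and 645.2 ± 29.1 CPM (log2 fold change 0.07, 95% interval -0.19 to 0.32, not called). The early genes Eip75B (0.55, edgeR adjusted p = 0.00512) and Eip74EF (-0.83, adjusted p = 0.0183) moved in opposite directions. The call of Eip75B was lost when scaled by total counts and with the length trend removed, and that of Eip74EF without day 11 replicate 3 or day 5 replicate 1. ftz-f1, the gene that Blimp-1 represses, was higher at day 11, at 331.9 ± 38.3 against 185.2 ± 14.8 CPM (log2 fold change 0.84, adjusted p = 0.000507), so that it and Blimp-1 were both higher on that day. Hr46, the gene of the nuclear receptor Hr3, had no count at day 5 and 1.28 to 1.45 CPM at day 11, too low to be tested. Eip93F, which specifies adult fates, had the largest log2 fold change of the list, 6.41 (SE 0.29). The other genes named by rule were E23 (2.82), an ABC transporter gene, kay (1.28), the fly Fos gene, and Hr78 (-1.03), a nuclear receptor gene.

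Hormone supply genes gave 1 call. Of 10 tested genes for the synthesis, uptake and turnover of ecdysteroids, Oatp74D, the importer that takes ecdysone into cells, was lower (log2 fold change -0.62, SE 0.19, edgeR adjusted p = 0.0261), a call lost in 4 of 17 other settings. Synthesis genes of this list such as spok, phm and sad are also among the ring gland genes, and spok ran from 12.7 to 223.1 CPM over the day 5 libraries. Of 24 tested hormone-inducible genes of other tissues 6 were higher and 1 lower, and 17 were not called. Among the higher ones Sgs1, Sgs4 and Edg91 had at most 9 counts in a day 5 library. They passed the filter on low counts only with their day 11 libraries. W rose by 1.15 and the small heat shock gene Hsp23 by 1.18. Eip63E, a cyclin-dependent kinase gene, had 0.48, and ImpL3, the lactate dehydrogenase gene, -1.86. The calls of Eip63E and ImpL3 were lost in 7 and 4 of 17 other settings. Sgs1 and Sgs4, which were higher, are also among the salivary gland genes whose sum is given above. Sgs1 had no count at day 5, and the call of Sgs4 was lost in 7 of 17 other settings. The list's count was 3 without day 11 replicate 1 and 14 without robust shrinkage.

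Around ImpL2, a few genes of insulin-like signalling were higher and most did not pass the test. Of the 13 tested genes reported here 4 were higher and 9 not called, where 37.0% of all tested genes were called. InR, the insulin receptor gene, had 105.5 ± 9.26 CPM at day 5 and 232.6 ± 24.4 CPM at day 11 (SD, n = 3 each), a rise of 1.14 on the log2 scale (SE 0.13, edgeR adjusted p = 7.73e-05). Thor, which encodes a repressor of translation, had 14.5 ± 0.876 and 280.8 ± 41.4 CPM, a rise of 4.27 (SE 0.16), and the kinase gene S6k rose by 1.02. Of the 8 genes for insulin-like peptides only Ilp6 passed the filter, and it was not called. Ilp2, Ilp3 and Ilp5, which neurosecretory cells of the larval brain make, had 18, 25 and 20 counts in day 11 replicate 2 and at most 4 counts in any other library. They are named after their values were seen. That library also had the highest ImpE2, ImpL2 and Blimp-1 levels, and the part of brain RNA in these was not tested.

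Around ImpE1, ImpE2 and ImpE3 stand genes for the apical matrix and the eversion of discs. Of 23 tested 5 were higher, 7 lower and 11 not called, beside 37.0% called over all tested genes, with a median log2 fold change of -0.06. Sb, the membrane protease gene needed for eversion, stood at 13.4 ± 1.85 and 11.8 ± 4.79 CPM (log2 fold change -0.17, not called). The JNK phosphatase gene puc (1.29) and the matrix metalloprotease gene Mmp1 (0.98) rose, and bsk, the JNK gene itself, fell (-0.80). Among genes of the zona pellucida family of apical matrix proteins, pio rose by 0.46 and tyn fell, from 83.5 ± 8.75 to 20.5 ± 5.73 CPM (log2 fold change -2.02, SE 0.20, edgeR adjusted p = 2.62e-05). In the same family neo (-1.45), dp (-0.64) and qsm (-0.43) were also lower. The calls of dp and qsm were lost in 5 and 6 of 17 other settings. The rise of pio lost its call under total-count scaling and with the length trend removed. Of the integrin genes, mew fell (-0.52), mys rose (0.55) and if was not called (-0.22). The call of mys was also lost under total-count scaling and with the length trend removed.

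The enzymes around Eip71CD and Eip55E gave 1 higher and 3 lower genes of 13 tested and 9 not called, beside 37.0% called over all tested genes. Cbs, whose product makes the substrate of the Eip55E enzyme, fell with it, from 61.9 ± 0.303 to 41.2 ± 6.82 CPM (SD, n = 3 each; log2 fold change -0.59, SE 0.15, edgeR adjusted p = 0.00964). Ahcy13, which acts a step earlier, had -0.43, a call lost in 5 of 17 other settings. Trx-2, the thioredoxin gene whose product restores reductases of the Eip71CD kind, fell from 420.7 ± 81.7 to 201.0 ± 37.4 CPM (log2 fold change -1.07). SelR, the second kind of methionine sulfoxide reductase, moved against Eip71CD, with 0.48 (adjusted p = 0.0212), a call lost in 4 of 17 other settings.

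Of 14 tested partners and targets of the transcription factors 4 were higher, 3 lower and 7 not called, again beside 37.0% called over all tested genes. Mical, a target of Sox14 in neurite pruning, was not called (log2 fold change 0.41, 95% interval 0.05 to 0.77, edgeR adjusted p = 0.0729). Of the ubiquitin ligase and neddylation genes, whose products also act in pruning, Ubc12 (-1.11), skpA (-0.66) and Nedd8 (-0.55) were lower, and Cul1, slmb and Cand1 were not called. The call of Nedd8 was lost without day 5 replicate 2 and with the length trend removed. hdc rose by 1.17, and SoxN, another Sox gene, from 8.95 ± 3.64 to 41.6 ± 17.6 CPM (log2 fold change 2.22, SE 0.41).

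**Figure D5:**
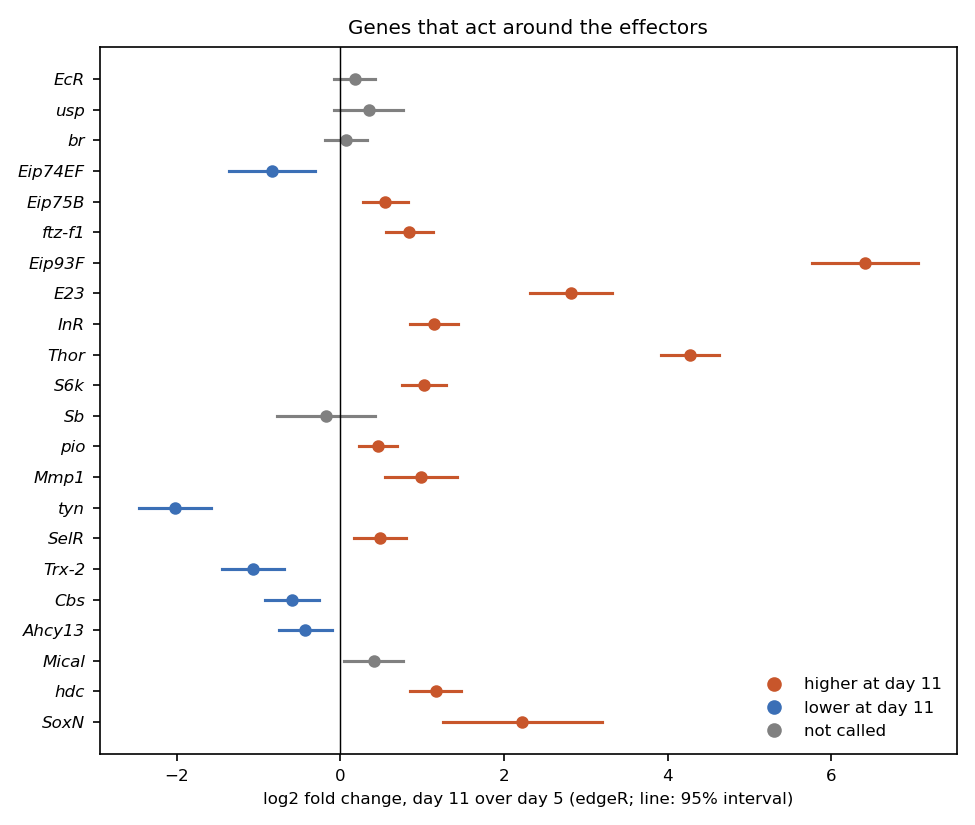
Log2 fold change of day 11 over day 5 (points) with 95% intervals from edgeR (lines) for genes that act upstream of, or beside, the effectors. EcR, usp, br, Sb and Mical were not called, and Eip93F at 6.41 and tyn at -2.02 are the extremes of the genes drawn.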

How the data were processed

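Poly(A) RNA of 6 libraries was read with a QuantSeq forward kit, which yields tags near the 3′ end of a transcript, per the labels' protocols. The authors deposited raw counts, 1 column per library. Per the submitters' processing notes, FastQC, cutadapt, STAR 2.6.1d and dm6 were used. The annotation, the counter, its strand setting and its rule for multiply matching reads were not given in the sources used here.

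Genes were matched to Ensembl's annotation of the same assembly by symbol (12512 of 16727 genes) or RefSeq synonym (3996); 219 were not matched. Coordinates are 1-based. After filterByExpr and TMM scaling, edgeR 4.0.16 (quasi-likelihood, robust; R 4.3.3) compared the libraries, day 11 over day 5, two-sided, adjusted by Benjamini-Hochberg over 8010 genes. SE were derived from the fold changes and F statistics of this fit, and 95% intervals from these SE with the t distribution. Both are approximate, above all for genes with few counts. The common biological coefficient of variation of the fit was 0.211. The script was tested on simulated counts. The labels do not say whether libraries came from separate cultures, and the p-values reflect only the spread among these libraries, in which technical spread may have a part. Exact permutation of 3 against 3 cannot go below p = 0.1. Libraries of 1 day differed beyond sampling noise (chi-square per degree of freedom 8.45 to 86.7).

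Members, 7 pathway lists and 8 marker lists were chosen with earlier results of these data known; 1 list gene was not found, 1 other is not reported here, and members are left out of the lists' counts. All members are named, with fixed partner genes and, per pathway list, up to 3 called genes of smallest p in each direction with at least 5 mean CPM. Some further list genes are named for context. Other settings were DESeq2 1.42.0 (size factors, Wald test), limma-voom (limma 3.58.1), other scalings and filters, no robust shrinkage, a replicate block, a loess trend on transcript length removed, and each library left out. No sequence is shown.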

Additional observations from a re-analysis of the deposited data

How the results depend on the processing

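ImpL1 and Sox14 kept direction and call in all 17 other settings, and no called member changed sign in any setting that tested it. The number of members called (7) was 3 to 6 with a library left out, the higher ones (5) 2 to 4 and the lower ones (2) 0 to 2. Demanding 5 CPM in 3 libraries, which left ImpE2, Eip63F-1 and Blimp-1 untested, gave 4 called members, of which 2 were higher. Total counts less the short RNAs left 1 lower member, since Eip55E missed the threshold. Over all genes, total-count scaling gave 865 higher and 2207 lower genes in place of 1533 and 1432 and shifted the median log2 fold change by -0.27. Values of the 3 members not called turned sign without being called. ImpE1 had -0.12 with total counts, -0.25 with the length trend removed and -0.00090 to 0.36 with a library left out. ImpE3 had 0.00086 with DESeq2 size factors, 0.087 with total counts less the short RNAs, 0.0094 with the 5 CPM filter, 0.083 without the length trend and -0.19 to 0.20 with a library left out. ImpL2 had -0.0088 with upper-quartile factors, -0.27 with total counts, -0.032 with limma-voom and -0.27 to 0.19 with a library left out. Nothing in the labels says that replicate numbers pair the libraries. Deviations from the day means over 8010 genes had correlations of 0.050, 0.19 and -0.086 between libraries of the same number. Between libraries of different number the correlations ran from -0.23 to 0.17. With 3 libraries per day these values cannot settle whether the numbers pair the samples. With a replicate block 3 members were higher, Eip63F-1 (adjusted p = 0.0586) and Blimp-1 (adjusted p = 0.0703) no longer called, and ImpL2 had -0.023. Few counts limit Blimp-1 and Eip63F-1 at day 5.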

Other observations

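The effector genes varied more between libraries at day 11 than at day 5. The SD was a larger share of the mean at day 11 for 8 of the 10 members, the exceptions being Eip63F-1 and Blimp-1 with their few counts at day 5, and for 59.1% of the 8010 genes tested. The median share rose from 17.0% to 36.0% for the members and from 14.3% to 18.2% over all tested genes. ImpL2 went from 6.14% to 32.5%, ImpL1 from 12.6% to 54.7% and Eip71CD from 18.1% to 52.8%. This was noticed after the data were seen, and no test was run on it.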
